A study of Homo sapiens with 9 samples.

Results

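OMA1, NUDT12, GPX8, CTSO and TMT1A are 5 genes of mitochondria, the redox and NAD machinery, the lysosome and lipid droplets whose signal stood low in HEK293 cells given the GPR39 agonist TC-G-1008. They are 5 of 11916 genes with a named probe set that could be tested, and each has 1 probe set. They were chosen by their measured values, for a large difference between the agonist arrays and the others, and all 9 arrays of each lie above the 40th percentile of their array, the filter used. The agonist differences are therefore given here as a description with no test. The step from mock to GPR39 was not used by that rule, although it shares its GPR39 arrays with the rule.

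HEK293 is an established human embryonic kidney cell line, and its RNA was hybridised to 9 single-colour Affymetrix arrays, 3 in each group. Mock arrays carry naive cells without cumate and are called mock control. GPR39 arrays carry cells labelled as overexpressing the zinc-sensing receptor GPR39 and given 0.03 mg/mL cumate, a small molecule that switches on engineered promoters. Agonist arrays carry cells with the same receptor label given 1 uM TC-G-1008. The sources used here do not say whether the agonist cells also had cumate, how long they were exposed, or whether the line was 1 clone. Replicates are called biological with no word on separate cultures, so each p-value reflects only how these arrays spread, which may be technical. No group had cumate or agonist without the receptor label, so receptor and cumate cannot be told apart in the first step, nor agonist and a possible lack of cumate in the second.

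OMA1 is a zinc-dependent protease of the inner mitochondrial membrane that is silent in healthy mitochondria and is switched on when the membrane potential falls. It then cuts OPA1, the GTPase that fuses inner membranes, and DELE1, the messenger that carries mitochondrial stress to the kinase EIF2AK1 and so to the integrated stress response. NUDT12 is a nudix hydrolase that cleaves NADH and NAD-capped RNA. GPX8 is a membrane-bound peroxidase of the endoplasmic reticulum that uses peroxide made during oxidative protein folding. CTSO is a papain-like cysteine protease of the lysosome. TMT1A, formerly METTL7A, is a thiol methyltransferase found on the endoplasmic reticulum and lipid droplets.

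In RefSeq coordinates of GRCh38.p14, OMA1 lies on chromosome 1 from 58480719 to 58546726 and spans 66.0 kb. NUDT12 and GPX8 share chromosome 5, at 103548855 to 103562789 and at 55160171 to 55167297, far apart from each other. CTSO lies on chromosome 4 from 155924118 to 155953866, and TMT1A on chromosome 12 from 50925015 to 50932508. Their lengths of 66.0, 13.9, 7.13, 29.7 and 7.49 kb stood at the 73.8th, 31.8th, 17.6th, 52.6th and 18.4th percentile of 10280 tested coding genes, so the 5 are neither uniformly long nor uniformly short. OMA1 overlaps DAB1, GPX8 overlaps CDC20B and TMT1A overlaps HIGD1C in the same annotation. No source used here says where the probes of each probe set lie.

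Promoter sequence was matched for 3 of the 5 genes, OMA1, GPX8 and TMT1A, and is printed because genes that stand low together invite a look at what lies before their starts. Each run is the 250 bases before the annotated start, from RefSeq, build GRCh38.p14, read 5′ to 3′ on the gene's own strand. Capitals mark matches to any of 6 short motifs, searched on both strands: the AP-1 site TGANTCA, the cAMP response element TGACGTCA, the EGR core GTGGGCG, the E-box CACGTG, the CCAAT box CCAAT and the TATA box TATAAA. NUDT12 and CTSO had no entry.
OMA1, chr1:58546727-58546976, minus strand: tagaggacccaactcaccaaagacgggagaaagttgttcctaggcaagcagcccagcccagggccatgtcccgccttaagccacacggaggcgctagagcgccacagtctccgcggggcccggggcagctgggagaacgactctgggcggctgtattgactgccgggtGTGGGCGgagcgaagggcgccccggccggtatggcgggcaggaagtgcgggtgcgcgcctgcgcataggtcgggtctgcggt
GPX8, chr5:55159921-55160170, plus strand: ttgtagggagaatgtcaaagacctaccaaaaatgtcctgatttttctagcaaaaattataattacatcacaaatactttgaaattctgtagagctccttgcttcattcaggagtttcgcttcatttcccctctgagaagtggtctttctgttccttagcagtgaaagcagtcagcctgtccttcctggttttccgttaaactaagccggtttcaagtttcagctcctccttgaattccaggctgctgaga
TMT1A, chr12:50924765-50925014, plus strand: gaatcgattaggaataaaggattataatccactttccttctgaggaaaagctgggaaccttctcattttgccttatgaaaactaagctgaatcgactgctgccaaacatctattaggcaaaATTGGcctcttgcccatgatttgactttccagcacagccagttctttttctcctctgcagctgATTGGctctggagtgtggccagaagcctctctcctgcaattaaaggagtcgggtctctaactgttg

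These 3 promoters differ in base composition. OMA1's is rich in G and C, with a GC content of 68.0% and 23 CpG dinucleotides, against medians of 58.0% and 11 over 27305 promoters of the same length. Those of GPX8 and TMT1A are poor in both, with GC contents of 41.2% and 44.4% and 3 CpG dinucleotides each. The EGR core was found in OMA1's promoter 82 bases before the start, and 8.67% of all promoters hold it. TMT1A's held the CCAAT box on the opposite strand at 129 and 66 bases before the start, as 33.0% of all promoters do at least at 1 position. GPX8's held none of the 6 motifs in this window. The other 4 motifs, present in 6.60% (AP-1), 1.77% (cAMP response element), 6.49% (E-box) and 11.1% (TATA) of promoters, were in none of the 3. No motif was shared between any 2 of them.

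The median log2 signal of an array ran from 3.13 to 3.22. The 8 named HEK293 markers of 12 averaged 6.26 to 6.40 on the mock arrays, 6.16 to 6.21 on the GPR39 arrays and 6.02 to 6.16 on the agonist arrays. The 2 named fibroblast markers averaged at most 1.88, the 3 endothelial markers at most 2.68 and the 4 hepatocyte markers at most 3.35 on any array. The 3 named leukocyte markers of 6 averaged 2.87 to 2.93 in mock, 2.98 to 3.26 in GPR39 and 3.12 to 3.27 in agonist, so mock lay below both other groups. The part of these shifts in the results below was not tested. GPR39's own probe set read between 2.43 and 2.65 on all 9 arrays and did not pass the filter, so overexpression was not measured and groups are named by their labels. Over tested probe sets, mock replicate 1 had a mean r of 0.979 with the other mock arrays and 0.984 with the GPR39 arrays, so values without it are given where they bear on a result. In bulk RNA, fewer cells of a type and less RNA per cell cannot be told apart.

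OMA1 read 6.69, 6.61 and 6.58 on the mock arrays, 6.20, 6.28 and 6.30 on the GPR39 arrays, and 4.63, 5.36 and 4.83 on the agonist arrays, in log2 signal. The mock and GPR39 arrays were tight and did not overlap, and the agonist arrays lay below both with a wider spread (SD 0.38 against 0.06 and 0.05). On the linear scale the agonist group stood at 40.1% of the GPR39 group. The gap between the lowest GPR39 array and the highest agonist array was 0.84.

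NUDT12 read 6.01, 5.85 and 5.62 in mock, 5.43, 5.43 and 5.41 in GPR39, and 4.37, 4.33 and 3.98 in agonist. The GPR39 arrays were nearly identical, and no 2 groups overlapped. Its GPR39 level, 5.42 ± 0.01 (SD, n = 3), sat between 5.83 ± 0.20 in mock and 4.23 ± 0.21 in agonist.

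For GPX8, mock arrays read 6.71, 6.65 and 6.52, GPR39 arrays 6.59, 6.40 and 6.46, and agonist arrays 5.16, 5.43 and 5.35. Here mock and GPR39 overlapped, and the agonist arrays lay apart from both by at least 0.97. GPX8's change from mock to GPR39, which did not pass, was 11.2% of its log2 difference between mock and agonist.

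CTSO gave 4.83, 4.96 and 4.81 in mock, 4.96, 5.00 and 5.28 in GPR39, and 3.89, 3.46 and 4.31 in agonist. It was the 1 member whose mean was higher in GPR39 than in mock, and those groups overlapped. Its agonist arrays had the largest spread of any member and group (SD 0.42), and the lowest of them, 3.46, still stood above the 40th percentile of its array, 2.68.

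TMT1A read 7.50, 7.38 and 7.13 in mock, 6.79, 6.69 and 6.80 in GPR39, and 5.45, 5.47 and 5.73 in agonist. The 3 groups formed 3 separate levels. The difference between mock and agonist was -1.79 ± 0.12 (SE), which leaves 29.0% of the mock signal on the linear scale.

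**Figure D1:**
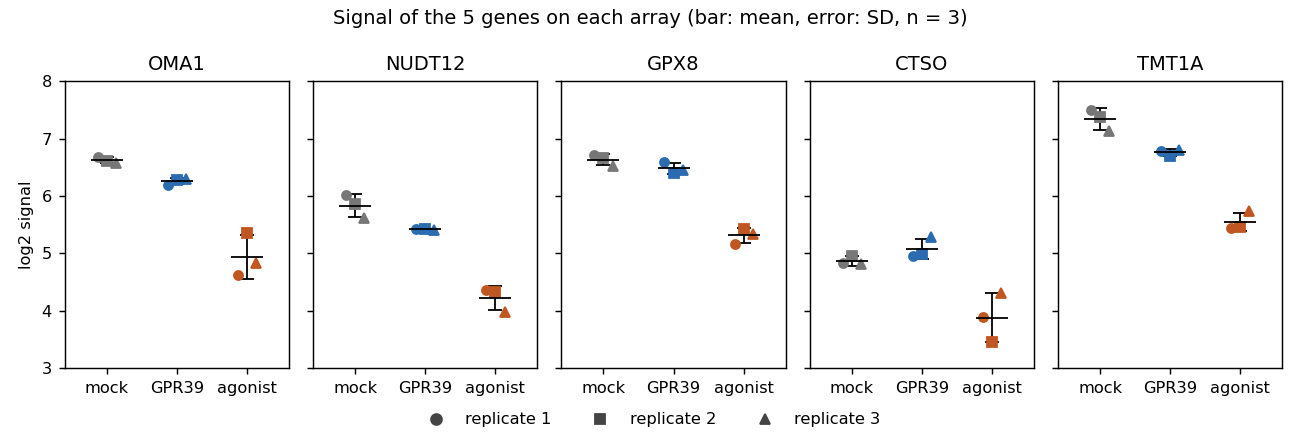
Log2 signal (vertical axis) of each of the 5 genes on the 9 arrays, by group, with symbols for replicates, long bars for means and error bars for SD (n = 3). Agonist arrays lie below all other arrays for each gene, with the narrowest gap between GPR39 and agonist, 0.65, for CTSO.

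Levels of GPR39 and mock arrays were compared to ask whether these genes differ with the receptor label and cumate, without the agonist. Of the 5 genes, 4 had a lower mean in GPR39 and 1, CTSO, a higher one, with a median log2 change of -0.37 against 0.01 over all 33376 probe sets tested. None passed, by limma with Benjamini-Hochberg adjustment over all probe sets tested, where 0.422% of probe sets were called lower. That share stands for 141 probe sets, and leaving out 1 array moved their number between 21 (without GPR39 replicate 3) and 905 (without mock replicate 1), with 25 to 44 without any 1 of the other mock and GPR39 arrays. NUDT12 and TMT1A, 2 of 5, had an unadjusted p under 0.05, as did 7.53% of tested probe sets in the lower direction. TMT1A came nearest, with a log2 change of -0.58 ± 0.12 (SE; 95% interval -0.84 to -0.31; limma adjusted p = 0.0682). NUDT12's change was -0.41 ± 0.13 (adjusted p = 0.206) and OMA1's was -0.37 ± 0.17 (adjusted p = 0.349). For GPX8 it was -0.15 ± 0.10 with an interval from -0.37 to 0.07, and for CTSO 0.21 ± 0.20 with an interval from -0.24 to 0.66 (adjusted p = 0.520 and 0.664).

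Signal of OMA1, NUDT12 and TMT1A was lower on every GPR39 array than on any mock array, a pattern that 9.28% of tested probe sets also show. The members were picked for standing high in GPR39 relative to agonist, and the GPR39 arrays enter this comparison too. Without mock replicate 1 the changes were -0.34, -0.32, -0.11, 0.19 and -0.49 for OMA1, NUDT12, GPX8, CTSO and TMT1A, each nearer to 0, and none passed (TMT1A's adjusted p = 0.0732), although 1324 probe sets passed in place of 391. TMT1A's call depended on the settings: it passed under 4 of 20 alternatives, with adjusted p from 0.0258 to 0.216 over all of them.

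**Figure D2:**
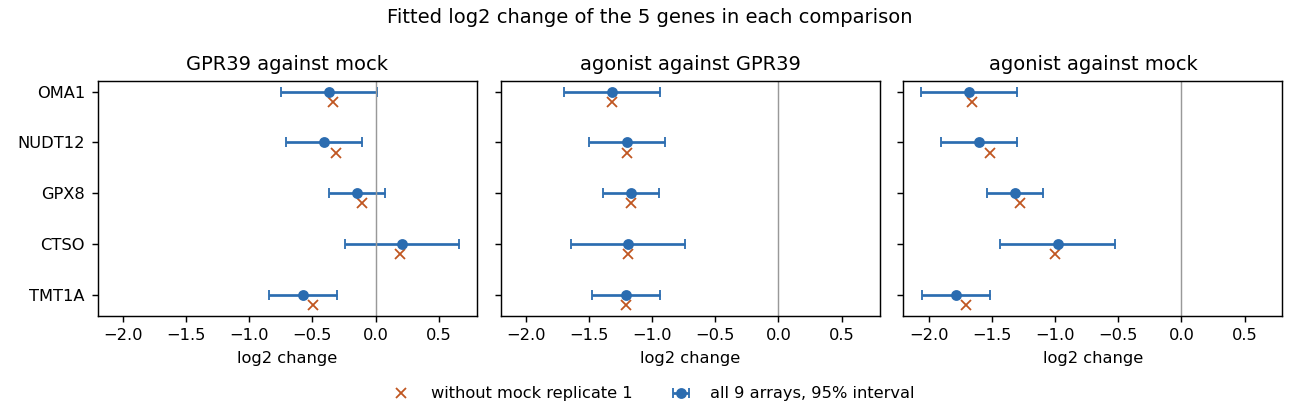
Fitted log2 change (horizontal axis) of the 5 genes in the 3 comparisons, with 95% intervals, and crosses for the fit without mock replicate 1. In GPR39 against mock the changes run from -0.58 to 0.21, in agonist against GPR39 from -1.32 to -1.17.

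Agonist arrays were then set against GPR39 arrays, the contrast that chose the genes. Log2 changes were -1.32 ± 0.17 (SE) for OMA1, -1.20 ± 0.13 for NUDT12, -1.17 ± 0.10 for GPX8, -1.19 ± 0.20 for CTSO and -1.21 ± 0.12 for TMT1A. They lay closer together than the standard errors of OMA1 and CTSO, so no order among them can be read. The median corresponds to a 2.29-fold lower signal. All 5 passed the threshold, which the rule ensured, and 5.95% of all tested probe sets were called lower. These 1985 lower calls became 925 to 1009 without any 1 of the GPR39 arrays and 1303 without agonist replicate 1. Agonist arrays wholly below the GPR39 arrays were seen for 16.5% of tested probe sets. Changes below -1 were found for 110 probe sets, or 0.33% of those tested.

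Against mock, the agonist arrays stood lower by a wider range. Log2 changes were -1.68 ± 0.17 (SE) for OMA1, -1.60 ± 0.13 for NUDT12, -1.32 ± 0.10 for GPX8, -0.98 ± 0.20 for CTSO and -1.79 ± 0.12 for TMT1A. TMT1A and OMA1 differed by less than their standard errors together, and without agonist replicate 2 their order turned (-1.74 and -1.89). In the order given first, the agonist signal was 31.1%, 32.9%, 40.1%, 50.7% and 29.0% of mock. Of all tested probe sets, 8.94% were called lower, and 16.2% had every agonist array below every mock array. As point estimates, the change in GPR39 against mock was 32.3% of the mock to agonist log2 difference for TMT1A and 25.4% for NUDT12. It was 21.8% for OMA1 and 11.2% for GPX8, and had the opposite sign for CTSO. None of these changes passed in GPR39 against mock. The intervals of OMA1 (-0.75 to 0.01) and GPX8 (-0.37 to 0.07) held both signs, so the shares are rough. The labels do not say that agonist cells passed through the state of the GPR39 cells. The agonist arrays enter both comparisons, so their values are not separate evidence.

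Each gene belongs to a family or pathway whose other members were read from 5 lists chosen with earlier results of these data known. In agonist against GPR39, 3.12% of all tested probe sets were called higher and 5.95% lower, and among named probe sets alone 3.59% and 9.28%. The median log2 change of named probe sets was -0.03.

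OMA1's partners came first. Of 26 tested genes for mitochondrial proteases, their substrates and inner-membrane organisers, 6 fell, 0 rose and 20 did not pass, with a median of -0.16. Of the 26, 23 had a value below 0. The median of all named probe sets was itself below 0, at -0.03, and their share below 0 was not counted. In the nudix, redox, lysosomal and lipid droplet lists, 21 of 30, 21 of 31, 24 of 32 and 14 of 23 lay below 0 too. Without the share over all named probe sets, 23 of 26 cannot be read as particular to these genes. The lowest of the 26 was -0.60. OMA1 was chosen for its large change, so smaller changes in its partners do not set it apart. The 4 genes with the smallest p were PHB1, a prohibitin scaffold subunit, at -0.47 ± 0.09 (SE), the stress kinase gene EIF2AK1 at -0.32 ± 0.07, APOOL of the cristae-organising complex at -0.49 ± 0.11, and PINK1, the kinase that marks damaged mitochondria, at -0.38 ± 0.09. Their adjusted p ran from 0.0139 to 0.0288. PHB1 and APOOL had GPR39 means of 6.27 and 8.47, above their mock means of 6.04 and 8.12. Neither passed in agonist against mock, while EIF2AK1 and PINK1 did. EIF2AK1 read 9.06, 9.04 and 9.10 on the GPR39 arrays and 8.74, 8.72 and 8.78 on the agonist arrays. The 2 direct OMA1 substrates did not pass, with OPA1 at -0.19 ± 0.08 (95% interval -0.37 to -0.01) and DELE1 at -0.08 ± 0.07 (interval -0.25 to 0.09). YME1L1, the other protease that cuts OPA1, was at -0.03 ± 0.07 (interval -0.19 to 0.13).

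The count for this list moved with single arrays. Its 6 lower genes became 0 without GPR39 replicate 1 or 2, and 1 without GPR39 replicate 3 or agonist replicate 1, and 4 without agonist replicate 2 or 3. PHB1 lost its call without GPR39 replicate 1 or 2. EIF2AK1 lost it without any 1 of the GPR39 arrays or agonist replicate 1 or 2, and APOOL and PINK1 without any 1 of the GPR39 arrays or agonist replicate 1 or 3.

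NUDT12's list joined 20 other measured NUDT genes to NAD enzymes. Of 30 tested genes, 2 rose, 3 fell and 25 did not pass, with a median of -0.06. NUDT11, a diphosphoinositol polyphosphate hydrolase gene, rose by 1.24 ± 0.11 (SE), from 6.39, 6.26 and 6.30 on the GPR39 arrays to 7.39, 7.68 and 7.59 on the agonist arrays, with no overlap (adjusted p = 0.000734). It has a near-identical copy, NUDT10, whose own probe set read otherwise, at 0.29 ± 0.20 (SE; limma adjusted p = 0.435). Whether either probe set also reads the other gene was not tested. For NAMPT, the gene of the rate-limiting enzyme of NAD salvage, the brightest probe set rose by 0.47 ± 0.07 (adjusted p = 0.00557). It has 2 other tested probe sets, which were not read here, so the rise holds for that probe set alone. The mitochondrial genes NNT, which forms NADPH, and NADK2, an NAD kinase, fell by 0.48 and 0.31 on the log2 scale (adjusted p = 0.00634 and 0.0233). NADK2 lost its call without any 1 of the GPR39 arrays or agonist replicate 1 or 2. NNT read 8.26, 8.32 and 8.30 in GPR39 and 7.87, 7.85 and 7.70 in agonist, so its groups lay apart. The 3 lower genes became 1 without GPR39 replicate 1 or 3 or agonist replicate 1 or 2. NUDT2, a hydrolase gene for diadenosine tetraphosphate, was the third gene that fell, and is named after its values were seen. It read 5.16, 4.99 and 4.97 in GPR39 and 3.92, 4.22 and 4.42 in agonist, with no overlap. Its change of -0.86 ± 0.18 (SE; 95% interval -1.28 to -0.43; adjusted p = 0.0261) was the lowest of the 20 other NUDT genes, and its interval reached past NUDT12's -1.20. It lost the call without any 1 of the GPR39 arrays or agonist replicate 1 or 2. NUDT13 and NUDT7, linked to NADH and coenzyme A, did not pass, at -0.30 ± 0.21 and -0.39 ± 0.11.

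None of the other glutathione peroxidase genes tested passed in this comparison, by limma with Benjamini-Hochberg adjustment, and 0 had an unadjusted p under 0.05. All 7 of them have a named probe set, and 4 were tested. GPX7, the other peroxidase of the endoplasmic reticulum, was at -0.01 ± 0.12 (SE; 95% interval -0.28 to 0.25), GPX4 at -0.11 ± 0.08, GPX1 at -0.03 ± 0.11 and GPX3 at -0.04 ± 0.10. The 4 intervals, of which the lowest bound was -0.30, held no change as large as that of GPX8. GPX8 was chosen for its large change, so this is a description and does not set it apart. GPX7 was dim, however, at 2.94, 2.92 and 3.26 on the GPR39 arrays and 3.17, 2.91 and 2.99 on the agonist arrays. These values lie close to the 40th percentile of the arrays, 2.63 to 2.70, so they say little about a fall. GPX3 was dim too, with means of 3.79 in GPR39 and 3.75 in agonist.

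Across the wider list of thiol redox genes, 2 of 31 tested genes rose, 7 fell and 22 did not pass, with a median of -0.05. CAT, which encodes the peroxisomal hydrogen peroxide enzyme catalase, fell by 0.74 ± 0.11 (SE) on the log2 scale, from 6.41, 6.49 and 6.46 to 5.84, 5.55 and 5.75 (adjusted p = 0.00716). ERO1B, the oxidase that makes disulfides and peroxide in the endoplasmic reticulum, rose by 0.55 ± 0.09 (adjusted p = 0.00985). GSR, glutathione reductase, and PRDX3, the mitochondrial peroxiredoxin, fell by 0.34 each (adjusted p = 0.0110 and 0.0157). GSR lost its call without GPR39 replicate 2, and PRDX3 without any 1 of the GPR39 arrays. The 7 lower genes became 1 without GPR39 replicate 2, 2 without GPR39 replicate 1, 3 without agonist replicate 2, and 4 without GPR39 replicate 3, agonist replicate 1 or mock replicate 2. The 2 higher genes became 1 without any 1 of the GPR39 or agonist arrays.

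Other cathepsins were read from the lysosomal list alone. Of its 12, 11 were tested and 3 of these fell. They were CTSZ by 0.29, CTSC by 0.33 and the aspartic protease CTSD by 0.33 on the log2 scale. CTSB and CTSL did not pass, at -0.15 ± 0.07 (SE) and -0.07 ± 0.07, nor did CTSV, at 0.29 ± 0.11. Over the whole lysosomal list, 0 of 32 tested genes rose, 6 fell and 26 did not pass, with a median of -0.12. SGSH, a heparan sulfate-degrading sulfatase, fell by 0.69 ± 0.10 (adjusted p = 0.00479), from 6.65, 6.74 and 6.60 to 6.05, 5.86 and 6.02. PPT1, a depalmitoylating enzyme, fell by 0.39 ± 0.07 (adjusted p = 0.0153). The adjusted p of CTSZ, CTSC and CTSD were 0.0239, 0.0346 and 0.0478. CTSZ lost its call without any 1 of the GPR39 arrays or agonist replicate 1 or 3, PPT1 without GPR39 replicate 2 or 3, CTSC without any 1 of the 6 arrays compared or mock replicate 2, and CTSD without any 1 array but mock replicate 3. The 3 lower cathepsins thus became 0 without any 1 of the GPR39 arrays or agonist replicate 1 or 3, and 1 without agonist replicate 2 or mock replicate 2, or with no filter on low values. The 6 lower genes became 1 without GPR39 replicate 2 or 3, 2 without GPR39 replicate 1 or agonist replicate 1, and 3 without agonist replicate 3 or mock replicate 2.

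TMT1B, the closest relative of TMT1A, read 5.36, 5.26 and 5.22 on the GPR39 arrays and 4.67, 4.42 and 5.02 on the agonist arrays. The groups did not overlap, and the change of -0.58 ± 0.15 (SE) missed the threshold narrowly (adjusted p = 0.0511). In its list of lipid droplet proteins and small-molecule methyltransferases, 2 of 23 tested genes rose, 3 fell and 18 did not pass, with a median of -0.07. HILPDA, an inhibitor of droplet lipolysis, rose by 0.51 ± 0.09 (adjusted p = 0.0111). Its mean went from 5.68 in GPR39 to 6.19 in agonist, near its mock mean of 6.22. The methyltransferase genes HNMT and TPMT fell by 0.45 and 0.46 on the log2 scale, and the lysophospholipid acyltransferase gene LPCAT2 by 0.35 (adjusted p = 0.0138, 0.0156 and 0.0289). Their GPR39 means lay above mock, at 5.29 against 5.07, 9.04 against 8.80 and 8.29 against 8.03. HILPDA, HNMT, TPMT and LPCAT2 did not pass in agonist against mock, so these changes depend on the GPR39 level. HNMT lost its call without GPR39 replicate 1, TPMT without GPR39 replicate 2 or 3 or agonist replicate 1, and LPCAT2 without any of these 3 or agonist replicate 3. The 3 lower genes became 1 without GPR39 replicate 2 or 3 or agonist replicate 1, and 2 without GPR39 replicate 1. The 2 higher genes became 1 without GPR39 replicate 1 or 3, agonist replicate 1 or mock replicate 2.

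**Figure D3:**
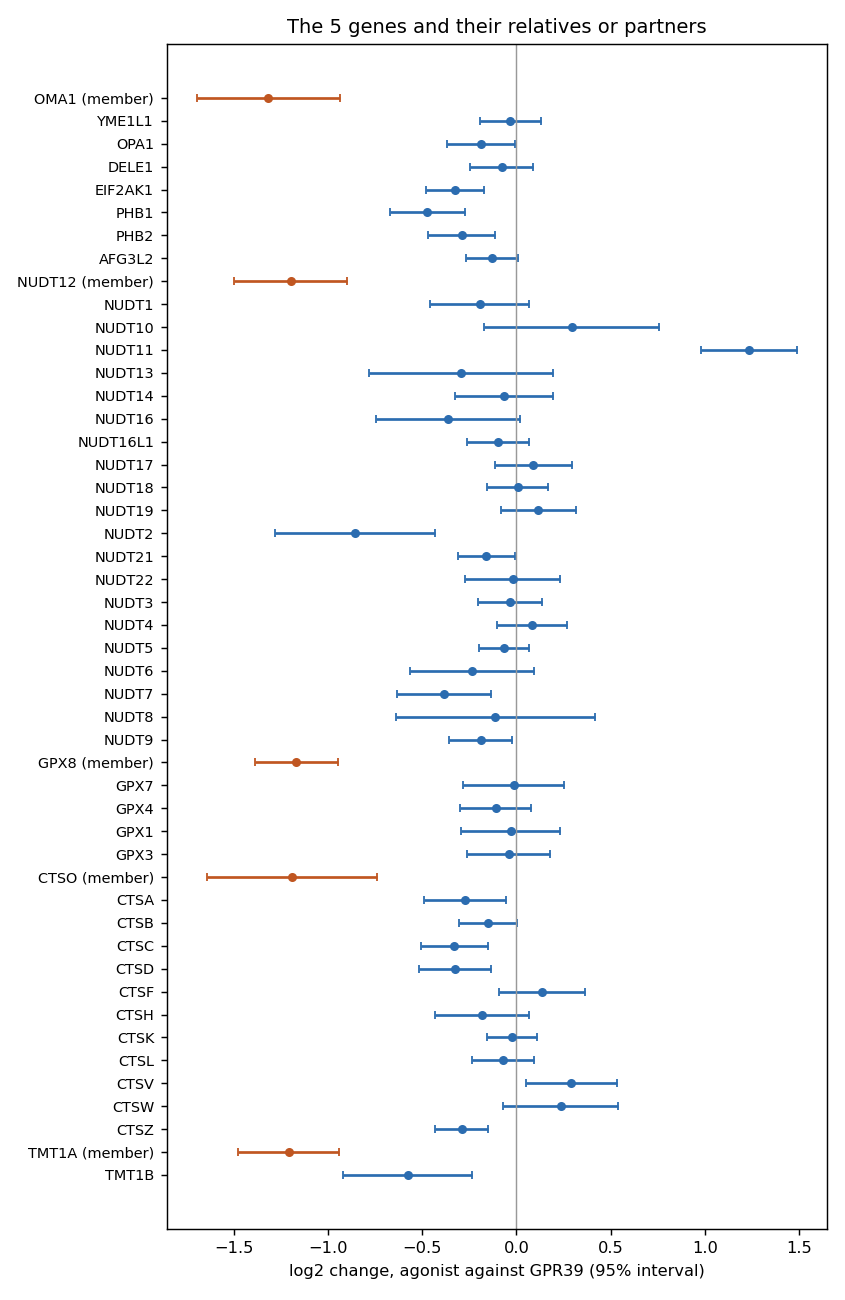
Log2 change in agonist against GPR39 (horizontal axis, with 95% intervals) for the 5 genes and for relatives or partners of each. The tested NUDT, GPX and cathepsin genes of the lists are among them, and all were picked for kinship after their values were known. The lowest relatives are NUDT2 at -0.86 and TMT1B at -0.58, NUDT11 lies at 1.24, and the intervals of NUDT2 and NUDT12 overlap.

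In GPR39 against mock, these lists held few calls, where 0.749% of all tested probe sets were called higher and 0.422% lower, or 1.08% and 0.561% of named ones. No gene passed in the mitochondrial, nudix, redox or lysosomal lists, with 5 of 26, 4 of 30, 5 of 31 and 7 of 32 genes at an unadjusted p under 0.05, against 14.8% of all tested probe sets, and medians of 0.03, 0.01, 0.08 and -0.02. Without mock replicate 1, these 4 lists had 1, 1, 2 and 1 higher genes and no lower one, and the lipid droplet list had 2 higher and 2 lower. In the lipid droplet list, 9 of 23 genes had such a p. The long-chain fatty acid ligase gene ACSL4 rose by 0.58 ± 0.06 (SE; adjusted p = 0.00651) and HILPDA fell by 0.53 on the log2 scale (adjusted p = 0.0321). HILPDA's fall was lost without any 1 of the GPR39 arrays, mock replicate 2 or 3, or agonist replicate 1, which shares the estimate of the spread. It was also lost with centring on the 75th percentile (adjusted p = 0.0574), quantile normalization (0.0509) and only the 2 groups fitted (0.0582), over a range of 0.0157 to 0.125.

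In agonist against mock, 6.11% of all tested probe sets were called higher and 8.94% lower, or 7.73% and 13.6% of named ones. The mitochondrial list had 0 of 26 higher and 5 lower, the nudix list 2 of 30 higher and 5 lower, and the redox list 6 of 31 higher and 8 lower. Lysosomal genes numbered 2 of 32 higher and 5 lower, and lipid droplet genes 3 of 23 higher and 2 lower. NUDT11 rose by 1.67, the brightest NAMPT probe set by 0.57, ERO1B by 0.64 and ACSL4 by 0.77. ABHD5, a lipase co-activator gene, rose by 0.61, and LGMN, the lysosomal asparaginyl protease gene, by 0.43. NNT was at -0.79, NADK2 at -0.53, CAT at -0.87, TXNRD3 at -0.78, GSR at -0.46, SGSH at -0.77, CTSZ at -0.47, ASAH1 at -0.46, EIF2AK1 at -0.37 and LPCAT1 at -0.91, all past the threshold. Their adjusted p reached at most 0.0108 (ABHD5), and none of the 16 lost its call when any 1 array was left out. NUDT2 and NUDT7 also passed, at -0.96 and -0.56 (adjusted p = 0.0103 and 0.0107), as did CTSD at -0.48 (adjusted p = 0.00632), and these 3 kept their calls whichever array was left out. TMT1B passed here, at -0.65 ± 0.15 (adjusted p = 0.0224), and lost the call without mock replicate 2 or agonist replicate 1. IMMP1L at -0.62, MIPEP at -0.42 and PINK1 at -0.33, all of the mitochondrial list, passed and were lost without at least 1 array: IMMP1L without mock or agonist replicate 1 or 3, MIPEP without these or GPR39 replicate 3, and PINK1 without any array but mock replicate 1 and agonist replicate 2. The mitochondrial list had 2 lower genes without mock replicate 3, GPR39 replicate 3 or agonist replicate 1, and 3 without mock replicate 1 or 2, GPR39 replicate 1 or 2, or agonist replicate 3. The redox list fell to 3 higher genes without agonist replicate 2 or mock replicate 2 or 3, and to 5 lower ones without agonist replicate 1 or mock replicate 2. The lipid droplet list fell to 1 lower gene without agonist replicate 1 or mock replicate 2.

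Neighbouring genes on the chromosome were read to see whether a low signal extends along the locus. The nearest 2 named and tested genes on each side and any overlapping one gave 22 neighbours. In agonist against GPR39, 5 of the 22 passed, 1 higher and 4 lower, with a median of -0.15, and none reached -1. Changes below -1 were found for 0.33% of all tested probe sets, and the 5 genes were chosen for large changes. Among all named and tested probe sets, 3.59% were called higher and 9.28% lower, with a median of -0.03. Whether the neighbours differ from these was not tested. DAB1, which overlaps OMA1, was at -0.15 ± 0.11 (SE), and CDC20B, which overlaps GPX8, at -0.26 ± 0.13. Both were dim, with means of 2.51 to 3.18 in the 3 groups, and neither passed (adjusted p = 0.461 and 0.278). JUN, an AP-1 subunit gene 234 kb from OMA1, rose by 0.41 ± 0.08 (adjusted p = 0.0188). MIR449B, 3.35 kb from GPX8, was at 0.13 ± 0.10. PPIP5K2 and EFNA5 beside NUDT12 were at -0.43 and -0.63, MAP9 beside CTSO at -0.39 and LIMA1 near TMT1A at -0.67, and all 4 passed (adjusted p from 0.00356 to 0.0212). These lie 336, 3814, 547 and 641 kb away, so named and tested neighbours were often distant.

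**Figure D4:**
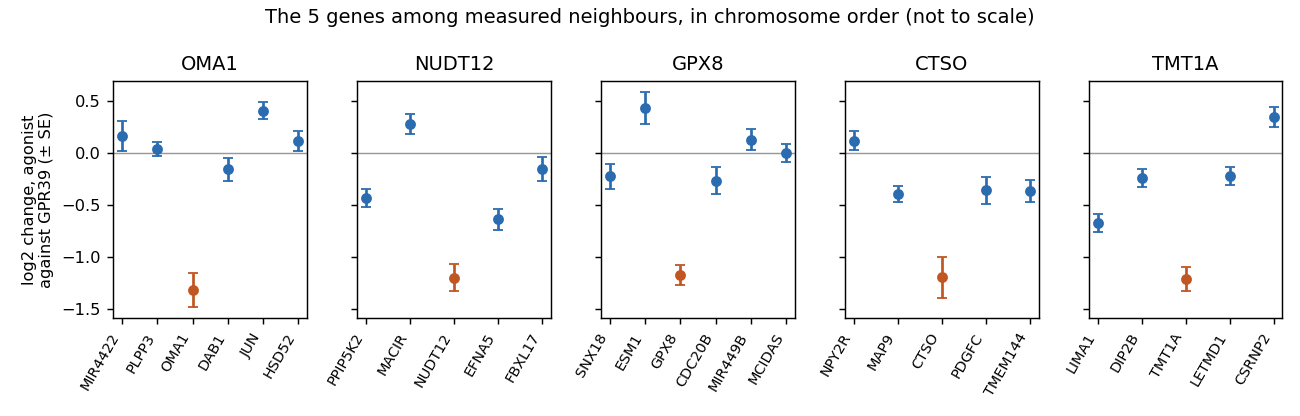
Log2 change in agonist against GPR39 (vertical axis, ± SE) for the 5 genes and for their named and tested neighbours, in chromosome order and not to scale. The neighbours lie between -0.67 and 0.44, above each of the 5 genes, which were chosen for large falls.

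The pattern over the 9 arrays was alike among 4 of the 5 genes. Pearson's r of each gene to the mean of the other 4 was 0.989 for GPX8, 0.973 for TMT1A, 0.962 for NUDT12, 0.956 for OMA1 and 0.824 for CTSO. The points share their arrays and the group difference that chose the genes, so these values are a description. Among 1401 other named and tested probe sets whose values span at least 1 log2 unit, the genes most like the mean of the 5 were HSDL1 (r = 0.999), TRMT2B (0.998), SERTAD4 (0.994), POLI (0.993), SMIM8 (0.993) and TM7SF3 (0.992). Their log2 changes in agonist against GPR39 ran from -1.18 for SERTAD4 to -0.81 for TRMT2B. The single closest gene was WDHD1 for OMA1 (r = 0.994), PRMT2 for NUDT12 (0.994), EPDR1 for GPX8 (0.990), VPS33A for CTSO (0.959) and EHMT2 for TMT1A (0.997). CTSO's closest gene, VPS33A, was the least alike, with a value of 0.05 in GPR39 against mock. CTSO's own value of 0.21 had an interval from -0.24 to 0.66, so no shared direction is read.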

How the data were processed

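The authors deposited 1 log2 value for each probe set and array (0.717 to 13.5; the scale is read from this range), and the submitters' processing notes name MAS5. Its version, the scaling and the log step are not stated there. The table holds 53617 probe sets, and the platform annotation names 1 gene for 16098 of them, updated by Entrez identifier in RefSeq genes of GRCh38.p14, which found all 16098. A probe set was tested if at least 3 of its 9 values exceeded the 40th percentile of their arrays, which left 33376, 12827 of them named. The 9 arrays were fitted together in limma 3.58.1 (R 4.3.3) with lmFit and eBayes, two-sided, with Benjamini-Hochberg adjustment over all tested probe sets and a threshold of 0.05. Scripts were tested on simulated data. Arrays give no read depth, and their number limits the precision.

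The 5 genes and all lists were chosen with earlier results of these data known. List genes count 1 probe set each, the brightest, and up to 4 with the smallest p are named per comparison. Beyond these, relatives and partners of the members are named, NUDT2, NUDT7, CTSD and GPX3 among them, as is TXNRD1. They were named with their values known, and other passing genes are only counted. Alternatives covered the filter, scaling, a linear offset of 16, the variance prior, array weights, the samples fitted, a block on replicate number, repeated rows and each array left out.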

Additional observations from a re-analysis of the deposited data

How the results depend on the processing

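No value of the 5 genes reversed under the 20 alternatives. The count of probe sets past the threshold in GPR39 against mock was 391, and it was 637 with a filter at the 60th percentile, 765 with an offset of 16, 663 with an intensity trend, 969 with array weights and 190 with only the 2 groups fitted. Leaving out 1 array gave 108 (without GPR39 replicate 3) to 1324 (without mock replicate 1). In agonist against GPR39 it was 3025, and 1518 (without GPR39 replicate 3) to 3157 (without mock replicate 1) with 1 array left out. In agonist against mock it was 5022, and 3133 with only the 2 groups fitted. Centring on the 75th percentile moved the share of calls that were lower from 36.1% to 25.3% in GPR39 against mock and from 59.4% to 43.8% in agonist against mock. An offset of 16 moved the median change of the 5 genes from -1.20 to -0.92 in agonist against GPR39 and from -1.60 to -1.07 in agonist against mock. With 1 array left out, that median in agonist against mock ran from -1.71 (without mock replicate 3) to -1.48 (without agonist replicate 3). The median hides differences between members. In agonist against GPR39, the smallest fall over the 20 alternatives was -0.68 for CTSO and -0.76 for NUDT12. For GPX8 it was -0.92, and for OMA1 and TMT1A -0.98. In agonist against mock it was -0.54 for CTSO. TMT1A passed in GPR39 against mock with the 60th percentile filter (adjusted p = 0.0413), the offset (0.0311), the intensity trend (0.0411) and array weights (0.0258). Same-numbered arrays did not deviate together (r from -0.10 to 0.06, 0 of 9 over 0.1), and different-numbered ones gave r from -0.13 to 0.12. This gave no sign of pairing by number, but with 3 arrays a group it cannot exclude pairing. A replicate block gave 150 and 1819 probe sets in the first 2 comparisons. With it HILPDA's call in GPR39 against mock was lost (adjusted p = 0.0593), and the 3 lower cathepsins in agonist against GPR39 became 0. The causes of these shifts were not tested, other than as stated.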

Other observations

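Within groups, the 5 genes did not move as one. Deviations of the 9 arrays from their group means gave Pearson's r between 2 genes of -0.59 (OMA1 and CTSO) to 0.61 (OMA1 and GPX8), with a median of 0.12 and 6 of 10 pairs above 0. Agonist replicate 2 had the highest OMA1 signal of its group, 5.36, and the lowest CTSO signal, 3.46. Agonist replicate 3 had the lowest NUDT12 signal, 3.98, and the highest CTSO and TMT1A signals, 4.31 and 5.73. With 3 arrays a group these correlations are descriptions of these arrays.

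GPX3, a secreted glutathione peroxidase, was at 0.40 ± 0.10 (SE) in GPR39 against mock, not past the threshold (limma adjusted p = 0.108), and stood 0.36 ± 0.10 higher in agonist than in mock (adjusted p = 0.0398), a call lost without any 1 of the mock arrays, GPR39 replicate 3 or agonist replicate 2 or 3. TXNRD1, the cytosolic thioredoxin reductase, rose by 0.52 ± 0.08 in agonist against mock (adjusted p = 0.00305), where TXNRD3 was at -0.78 ± 0.10 (adjusted p = 0.00175). GPX3 and TXNRD1 are named here after their values were seen.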
